A study of Macaca fascicularis with 10 samples.

Results

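The 6 genes SOX17, FOXA1, FOXA2, APOA1, AFP and LAMA1, which mark or shape the endoderm, were followed across cultured cells of the cynomolgus monkey, Macaca fascicularis. All probe sets annotated with 1 of these 6 symbols were taken, which gave 10 probe sets of the 52707 on the Affymetrix Rhesus Macaque array that were not controls. Of these 10, 9 passed the filter on low signal, which asked for a signal above the array's median on at least 2 arrays. The series held 10 arrays, 1 per sample, in 3 groups. The first was PG-haESC (5 arrays), embryonic stem cells (ESCs) with a haploid genome derived from parthenogenetic embryos, whose titles name the line MPH1 at passages 7, 8, 9 and 11 and the line MPH2 at passage 4. The second was ICSI ESC (3 arrays), ESCs whose source blastocysts came from sperm injected into the egg (ICSI), of the lines MES1 at passage 12 and MES2 and MES3 at passage 4. The third was labelled as female somatic fibroblasts (2 arrays, called MF, passages 14 and 15). The labels' growth text speaks of PG-haESCs on feeder cells with Y27635 and Thiazovivin, names neither the feeder species nor an age of the animals, and is repeated on every sample.

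The arrays of MPH1 carry 2 codes, M1 at passages 8 and 11 and M2 at passages 7 and 9, although their titles name 1 line. Nothing in the labels ties the arrays of a line to separate cultures, so the p-values measure the spread between these samples, which may in part be technical. The PG-haESC group therefore rested on 2 lines by title. Both MF arrays carry 1 line name and 1 code, 118, so tests against them do not cover other sources of fibroblasts.

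Endoderm is the inner germ layer. In the embryo it arises at 2 points, first as the extraembryonic endoderm that lines the yolk sac and later as the definitive endoderm that leaves the primitive streak under NODAL signalling. SOX17 is an SRY-box transcription factor required for endoderm. FOXA1 and FOXA2 are forkhead pioneer factors that open chromatin at endodermal and later hepatic enhancers. APOA1, the main apolipoprotein of high-density lipoprotein, and AFP, the fetal counterpart of albumin, are secreted by yolk sac endoderm and liver. LAMA1 encodes the alpha-1 chain of laminin-111, a basement membrane protein laid down by the epiblast and by parietal endoderm, so it is not specific to endoderm. In cultures of ESCs, transcripts of these genes can come from cells that have begun to differentiate.

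The deposited values were MAS5 signals on a linear scale, with each array scaled to the same trimmed mean. Array medians ran from 76.8 to 133. The highest median and the highest mean spike-in signal (13.6 on the log2 scale) were both those of MPH1 at passage 11, followed in spike-in signal by MES1 at passage 12 (13.3), against 12.1 to 12.8 on the other 8 arrays. The pluripotency list had 8 of 9 tested genes called higher in either ESC group than on the MF arrays. Of all probe sets tested, 17.0% were called higher in PG-haESC and 16.5% in ICSI ESC. On the MF arrays the collagen gene COL1A1 had signals of 8122 and 9202, and TP63, a factor of basal epithelium, 14270 and 14624, so these arrays are given as labelled. The table held no detection calls. A signal near or under the array median can therefore be background, and the signals of different probe sets were not set against each other.

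SOX17, FOXA1 and FOXA2 varied widely between ESC arrays. Their signals differed by 10.6-fold to 86.9-fold between the highest and the lowest ESC array, and on all 4 of their probe sets MES2 was the highest of the 8 ESC arrays. On both SOX17 probe sets and FOXA1 the lowest signal was under its array's median, so it can be background. On each of these 4 probe sets, 4 of the 5 PG-haESC arrays lay below all 3 ICSI ESC arrays, and the exception was MPH1 at passage 11. The fitted difference between PG-haESC and ICSI ESC was below 0 on all 4 and passed the adjusted threshold on none.

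SOX17 was represented by 2 probe sets. On MmugDNA.24740.1.S1_at, called SOX17 1 here, the PG-haESC signals were 364 (MPH1 passage 7), 524 (passage 8), 58.4 (passage 9), 1724 (passage 11) and 73.2 (MPH2). The ICSI ESC signals were 857 (MES1), 5070 (MES2) and 1082 (MES3), and the MF signals were 216 and 249. The ESC groups overlapped through MPH1 at passage 11 alone, and the 2 lowest ESC arrays, MPH1 at passage 9 and MPH2, lay below their array's median and below both MF arrays. The geometric mean was 269 in PG-haESC (SD 2.04 on the log2 scale, n = 5) and 1675 in ICSI ESC (SD 1.39, n = 3). The fitted log2 difference, PG-haESC minus ICSI ESC, was -2.91 ± 1.16 (SE), with a 95% interval of -5.43 to -0.39 and an adjusted p of 0.56 (limma, Benjamini-Hochberg over all probe sets tested).

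On the second SOX17 probe set, MmugDNA.5919.1.S1_at (SOX17 2), the PG-haESC signals were 47.8, 141, 64.9 and 510 for MPH1 at passages 7, 8, 9 and 11, and 32.6 for MPH2. The ICSI ESC signals were 290 in MES1, 1131 in MES2 and 265 in MES3, and the MF signals were 38.2 and 100.4. MES2 and MPH1 at passage 11 were again the 2 highest of the ESC arrays. The other MPH1 arrays were less well ordered, since passages 7 and 9 traded places between the 2 probe sets, where SOX17 2 was under the array median on both. The fitted difference was -2.46 ± 0.99 (SE) on the log2 scale, with an interval of -4.60 to -0.32 and an adjusted p of 0.56 by limma.

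FOXA1 had 1 probe set, MmunewRS.702.1.S1_s_at, of a type that can match more than 1 transcript. The PG-haESC signals were 154, 196, 143 and 369 for MPH1 at passages 7, 8, 9 and 11, and 76.4 for MPH2. The ICSI ESC signals were 494 in MES1, 1415 in MES2 and 333 in MES3, and the MF arrays read 116 and 107. MPH1 at passage 11 overlapped the ICSI ESC group by passing MES3, and MPH2 lay under both MF arrays. Relative to the array's median, FOXA1 was 2.78-fold in MPH1 at passage 11 and 3.49-fold in MES3, so that overlap depends on the scaling. Of the members, FOXA1 had the smallest unadjusted p between the ESC groups (0.0041), with a fitted log2 difference of -2.06 ± 0.59 (SE), an interval of -3.34 to -0.79 and an adjusted p of 0.23 by limma.

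FOXA2, on MmugDNA.15661.1.S1_at, was above the array median on all 8 ESC arrays. The PG-haESC signals were 240, 407, 125 and 1008 for MPH1 at passages 7, 8, 9 and 11, and 96.5 for MPH2. The ICSI ESC signals were 567 in MES1, 1020 in MES2 and 501 in MES3, and both MF arrays read 12. MPH1 at passage 11 matched MES2 here in signal (1.01-fold apart), and every ESC array was above both MF arrays. Relative to the array's median, FOXA2 was 7.60-fold in MPH1 at passage 11 and 13.3-fold in MES2, so the match depends on the scaling. The fitted log2 difference between the ESC groups was -1.56 ± 0.76 (SE), with an interval of -3.22 to 0.10 and an adjusted p of 0.73 by limma.

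**Figure D1:**
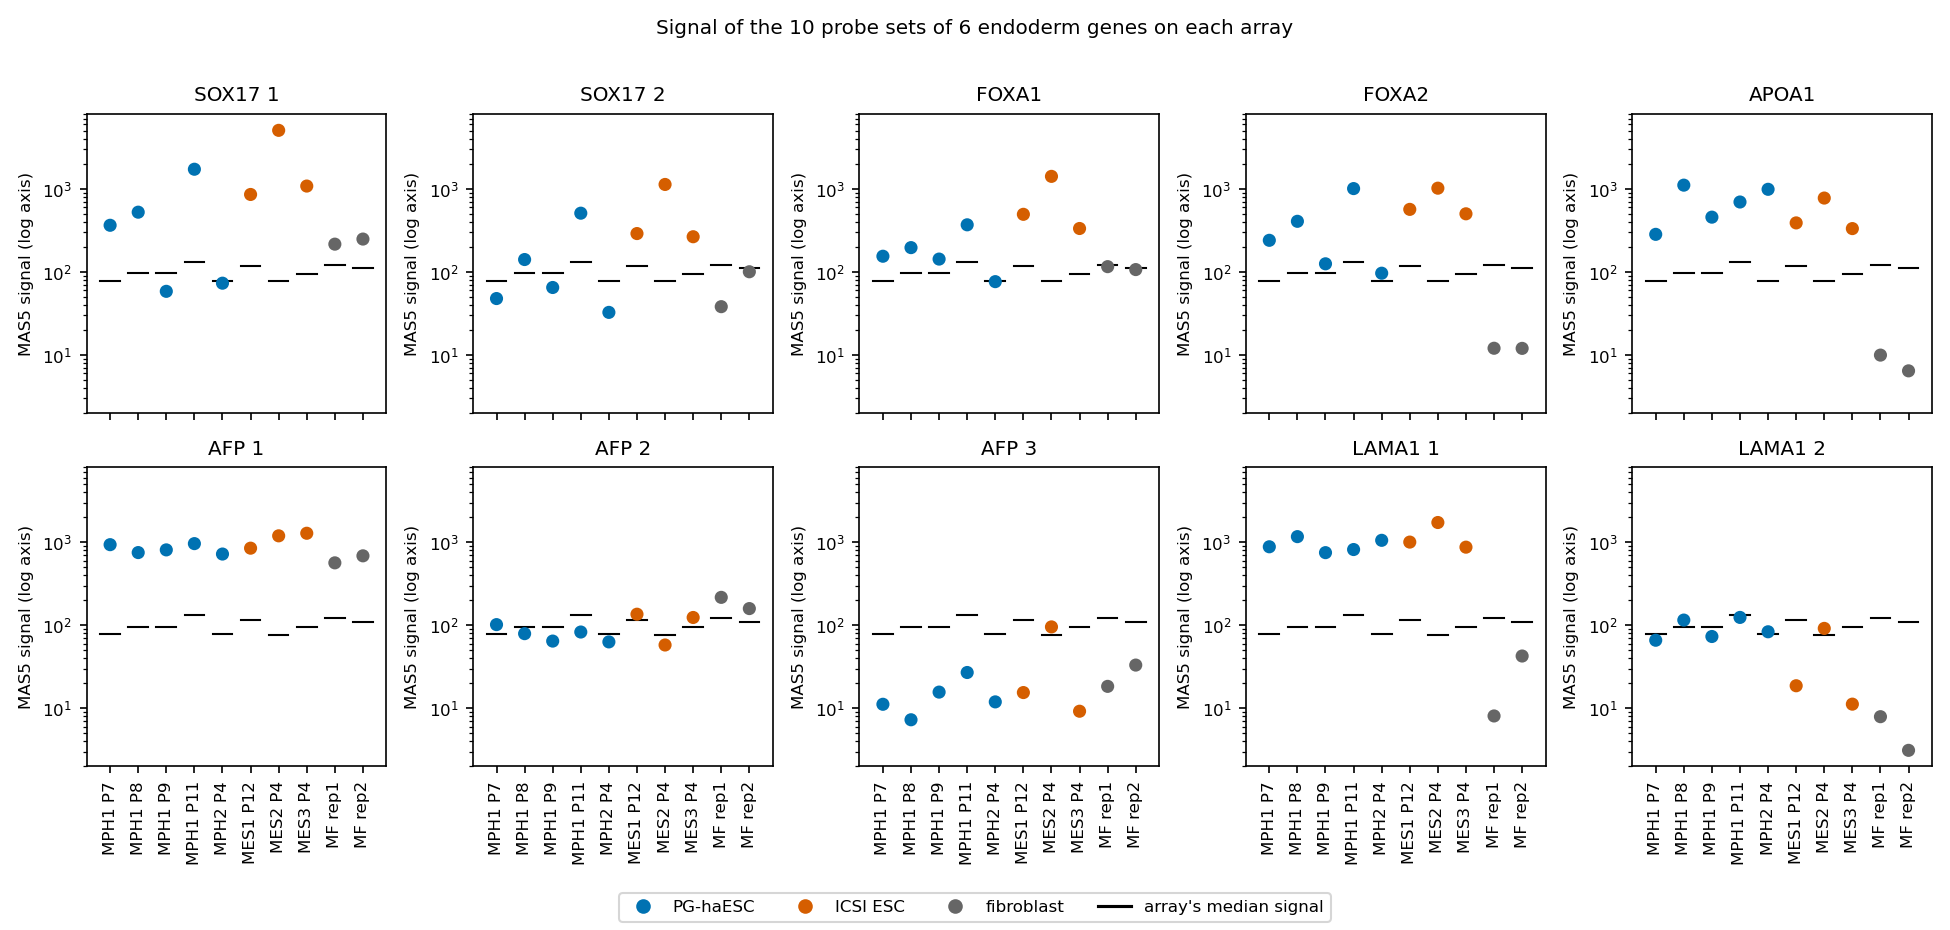
Signal of the 10 probe sets of the 6 endoderm genes on each of the 10 arrays (log axis, MAS5 units), with 1 panel per probe set, points coloured by group and short bars at each array's median signal. MES2 was the highest ESC array for both SOX17 probe sets, FOXA1, FOXA2 and LAMA1 1. The ESC arrays spread by 86.9-fold for SOX17 1, whose lowest signal was under its array's median, and by 1.78-fold for AFP 1.

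Within MPH1, the SOX17 and FOXA signals moved in both directions with passage. For code M1, passage 11 was 3.29-fold above passage 8 on SOX17 1, 3.62-fold on SOX17 2, 1.88-fold on FOXA1 and 2.48-fold on FOXA2. For code M2, the earlier passage 7 was 6.25-fold above passage 9 on SOX17 1, 1.92-fold on FOXA2 and 1.08-fold on FOXA1, while SOX17 2 had passage 9 above passage 7 by 1.36-fold. In code M2, SOX17 1 at passage 9 and SOX17 2 at both passages were under the array median. The size of these ratios depends on the scaling. Relative to the array's median, for example, FOXA1 was 2.78-fold at passage 11 and 2.04-fold at passage 8 of M1. Each ratio is of 1 array to 1 array, with no test. The later array of each code was thus the higher of its pair for M1 on all 4 probe sets and the lower for M2 on 3 of them.

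The 3 lines arrayed at passage 4 also differed. MES2 was above MPH2 by 69.3-fold on SOX17 1, 34.7-fold on SOX17 2, 18.5-fold on FOXA1 and 10.6-fold on FOXA2. MES3 was above MPH2 by 14.8-fold, 8.15-fold, 4.37-fold and 5.19-fold on the same probe sets. The MPH2 signals of SOX17 1, SOX17 2 and FOXA1 were under its array's median. Their folds are thus taken over a level that can be background. MPH2 was the lowest or second lowest ESC array on all 4. With 1 array per line here, line and group cannot be told apart, and a part of passage in the spread was not tested.

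The secreted proteins and the laminin chain varied less between the ESC arrays on their brightest probe sets. APOA1 was read on MmugDNA.24774.1.S1_s_at, a probe set of the same type as that of FOXA1, which can match more than 1 transcript. Its PG-haESC signals were 283, 1109, 457 and 695 for MPH1 at passages 7, 8, 9 and 11, and 988 for MPH2. The ICSI ESC signals were 389, 775 and 333 for MES1, MES2 and MES3, and the MF arrays read 9.96 and 6.43. MPH1 at passage 8 and MPH2 were highest and MPH1 at passage 7 lowest, so the PG-haESC values spanned those of ICSI ESC. The fitted log2 difference was 0.53 ± 0.55 (SE), with an interval of -0.66 to 1.73 and an adjusted p of 0.96 by limma.

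AFP had 3 probe sets, which disagreed. On MmugDNA.17474.1.S1_at (AFP 1) the PG-haESC signals were 935, 751, 809 and 963 for MPH1 at passages 7, 8, 9 and 11, and 721 for MPH2, against 849, 1195 and 1283 in MES1, MES2 and MES3. The MF signals were 565 and 686, so AFP 1 was above the array median on all 10 arrays, the MF arrays included, and its ESC range of 1.78-fold was wider than that of only 21.1% of the probe sets tested. On MmugDNA.19414.1.S1_at (AFP 2) the 8 ESC arrays ran from 57.9 (MES2) to 136 (MES1), and the 2 MF arrays, at 217 and 159, were above all of them. MmugDNA.41121.1.S1_at (AFP 3) was not tested, since it was above the array median on 1 array alone, MES2 at 95.6, with the other 7 ESC arrays between 7.28 and 27.0 and the MF arrays at 18.4 and 33.2. Over the ESC arrays, AFP 1 had a Pearson r of 0.24 with AFP 2 and 0.45 with AFP 3, and AFP 2 had one of -0.46 with AFP 3. No single statement on AFP transcripts therefore fitted all 3. The fitted log2 difference between the ESC groups was -0.42 ± 0.22 (SE; interval -0.90 to 0.05, adjusted p = 0.76) on AFP 1 and -0.41 ± 0.48 (interval -1.46 to 0.65, adjusted p = 0.97) on AFP 2.

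LAMA1 was bright and even across the ESC arrays on MmugDNA.39626.1.S1_at (LAMA1 1). Its PG-haESC signals were 882, 1169, 750 and 817 for MPH1 at passages 7, 8, 9 and 11, and 1055 for MPH2. The ICSI ESC signals were 1005, 1729 and 873 for MES1, MES2 and MES3, and the MF signals were 8.09 and 42.6. Apart from MES2, the ESC arrays lay between 750 and 1169 with the groups interleaved. The fitted log2 difference was -0.29 ± 0.54 (SE), with an interval of -1.47 to 0.89 and an adjusted p of 0.98 by limma.

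The other LAMA1 probe set, MmugDNA.7022.1.S1_at (LAMA1 2), was near or under the array median throughout. It read between 66.1 and 124 on the PG-haESC arrays, 18.7, 91.8 and 11.2 on MES1, MES2 and MES3, and 7.93 and 3.12 on the MF arrays. It was above the median on 3 arrays, all of them of ESCs, and its fitted difference of 1.73 ± 0.96 (SE; adjusted p = 0.81) opposed that of LAMA1 1 in sign. With signals under the median set to it, the difference was -0.06.

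Of the 9 member probe sets tested, none was called between PG-haESC and ICSI ESC, where 0.451% of all probe sets tested were called at an adjusted p under 0.05. At an unadjusted p under 0.05 there were 3, both SOX17 probe sets and FOXA1, where 7.37% of all probe sets passed. The fitted difference was below 0 for 7 of the 9, and their median was -0.42, against -0.02 over all probe sets tested. In bulk RNA, fewer endoderm cells in a culture and less of these transcripts per cell cannot be told apart. The ESC groups also differed in line and passage. The haploid genome and the parthenogenetic origin came together, so these cannot be told apart either.

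**Figure D2:**
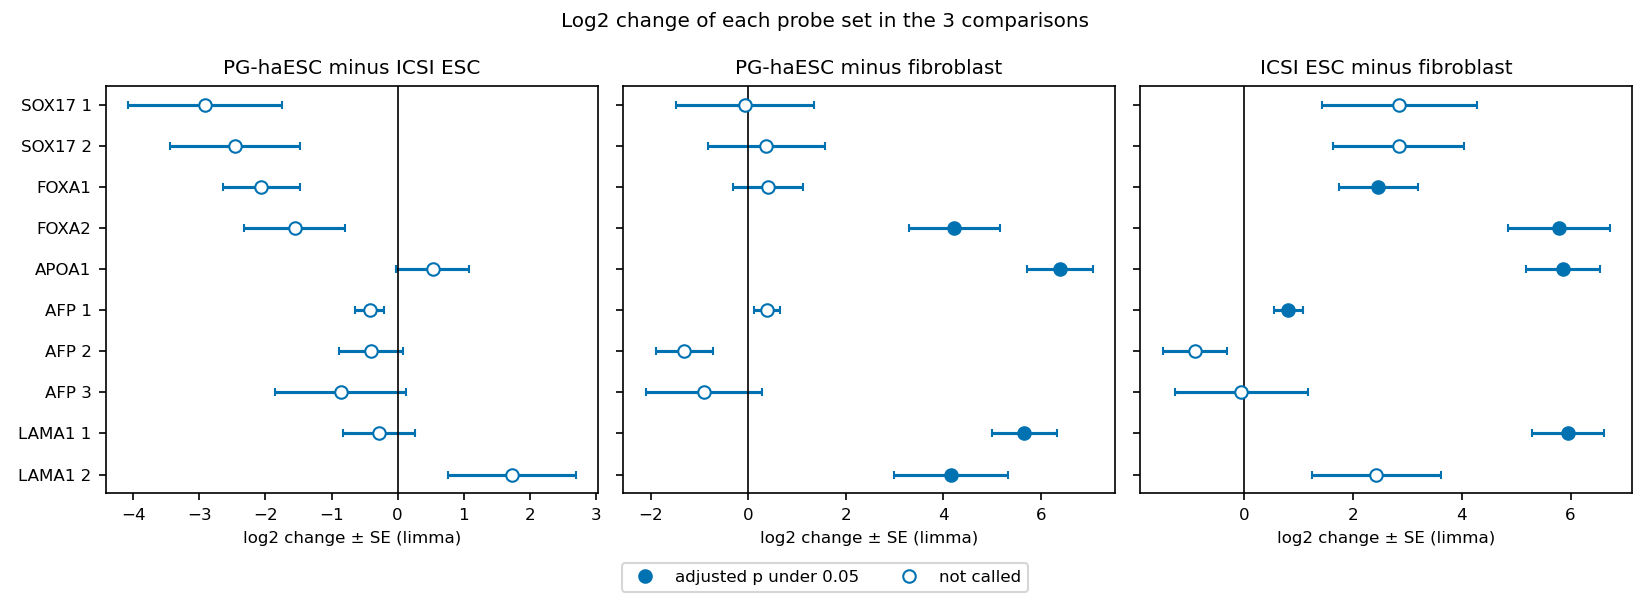
Fitted log2 difference, the first group minus the second, with bars of 1 SE, for the 10 member probe sets in each of the 3 comparisons; filled points had an adjusted p under 0.05, and AFP 3 comes from a fit with no filter. Between PG-haESC and ICSI ESC no point is filled, and both SOX17 probe sets, FOXA1 and FOXA2 lay between -2.91 and -1.56.

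Against the MF arrays, FOXA2, APOA1 and LAMA1 1 were called higher in both ESC groups. The 2 comparisons share the same 2 MF arrays, which are of 1 line. In PG-haESC, 4 of the 9 tested probe sets were called higher, where 17.0% of all probe sets were, and 0 lower, where 16.0% were. In ICSI ESC, 5 of the 9 were called higher, where 16.5% of all probe sets were, and 0 lower, where 16.2% were. FOXA2, APOA1, LAMA1 1 and FOXA1 were at or under the array median on both MF arrays, so the folds given for them are lower bounds, taken with each MF signal raised to its array's median. For a probe set that passed the filter only through its ESC signals, such as these, the filter favours a difference from the MF arrays without forcing one. A call of such a probe set adds little to the levels themselves.

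FOXA2 was at least 5.72-fold higher in ICSI ESC than on the MF arrays (adjusted p = 5.02e-04, limma). In PG-haESC its fitted log2 difference was 4.23 ± 0.93 (SE, adjusted p = 0.0038). With signals under the array median set to it, that difference was 0.95 with an adjusted p of 0.48, so no lower bound is given for it. APOA1 was at least 5.44-fold higher in PG-haESC (adjusted p = 1.88e-05) and at least 4.02-fold higher in ICSI ESC (adjusted p = 4.11e-05). LAMA1 1 was at least 7.97-fold higher in PG-haESC (adjusted p = 4.39e-05) and at least 9.93-fold higher in ICSI ESC (adjusted p = 3.43e-05).

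FOXA1 was called in ICSI ESC, at least 5.32-fold higher than on the MF arrays (adjusted p = 0.019, limma), and not in PG-haESC (fitted log2 difference 0.41 ± 0.71, SE, adjusted p = 0.72). The ICSI ESC call of FOXA1 was lost under 4 of 21 alternatives. Among them were the fits without MES2 (fitted log2 difference 1.87 against 2.47 with all arrays, adjusted p = 0.060, limma) and without either MF array. AFP 1 was 1.75-fold higher in ICSI ESC (adjusted p = 0.034), a call lost without MES2 (0.082), MES3 (0.099), the first MF array (0.16) or the second (0.053), and under 3 other alternatives. LAMA1 2 was called higher in PG-haESC (fitted log2 difference 4.16 ± 1.17, adjusted p = 0.016), with no bound on its fold, since its mean PG-haESC signal was no higher than the medians of the MF arrays. That call was lost with the sign kept under 3 of 21 alternatives, among them without MPH1 at passage 11 (adjusted p = 0.051, limma) and without the second MF array. The sign turned when signals under the array median were set to it (-0.26).

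SOX17 did not pass the threshold against the MF arrays in either ESC group. In ICSI ESC the fitted log2 difference was 2.85 ± 1.42 (SE) on SOX17 1 (adjusted p = 0.15, limma) and 2.84 ± 1.21 on SOX17 2 (adjusted p = 0.092). SOX17 2 was called in ICSI ESC under 4 of 21 alternatives (smallest adjusted p 0.025) and SOX17 1 under 1 (0.049). In PG-haESC it was -0.06 ± 1.41 and 0.38 ± 1.20, with adjusted p-values of 0.98 and 0.85. All 3 ICSI ESC arrays were above both MF arrays on both probe sets, whereas the PG-haESC arrays lay on both sides of the MF arrays.

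Over the 8 ESC arrays, SOX17, FOXA1 and FOXA2 varied together. SOX17 1 had a Pearson r of 0.92 with SOX17 2 (Spearman rho 0.90), 0.91 with FOXA1 (rho 0.90) and 0.97 with FOXA2 (rho 0.95) on log2 signal. FOXA1 and FOXA2 had an r of 0.88 and a rho of 0.98. These 8 arrays come from 5 lines, 4 of them from MPH1, so the points are not independent, and the values are given as a description. Of the 2588 genes that varied by at least 2 on the log2 scale over the ESC arrays and were ranked by likeness, 18 (0.696%) had an r over 0.9 with SOX17 1.

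The covariation was similar in most of the other ways in which it was computed. After each group's mean was subtracted, SOX17 1 had an r of 0.87 with SOX17 2, 0.85 with FOXA1 and 0.96 with FOXA2. Over the 5 PG-haESC arrays alone the same 3 values were 0.84, 0.87 and 0.97. Over the 5 line means the lowest of the 3 was 0.98, with FOXA2. Without the 2 arrays farthest from the median of the members' mean score, MES2 and MPH1 at passage 9, the lowest was 0.92, with FOXA1. Without MPH1 at passage 11 and MES1, the arrays of highest spike-in signal, it was 0.91, with SOX17 2.

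The profiles of APOA1 and LAMA1 over the ESC arrays differed from that of SOX17. APOA1 had an r of 0.00 with SOX17 1 (rho 0.02), -0.41 with AFP 1 and 0.51 with LAMA1 1. LAMA1 1 had an r of 0.53 with SOX17 1 (rho 0.29). That r became -0.52 without MES2 and MPH1 at passage 9. Those were the highest and the lowest ESC array on both probe sets, so leaving them out tends to lower a positive r. Without MPH1 at passage 11 and MES1 it was 0.71 (rho 0.60). AFP 1 had an r of 0.72 with SOX17 1 (rho 0.76), which was 0.46 (rho 0.17) when each array's signals were taken relative to its median, over a range of 1.78-fold against 86.9-fold for SOX17 1. The 3 transcription factor genes thus shared an order of the arrays that APOA1 and LAMA1 did not clearly share, with the r of AFP 1 in between.

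**Figure D3:**
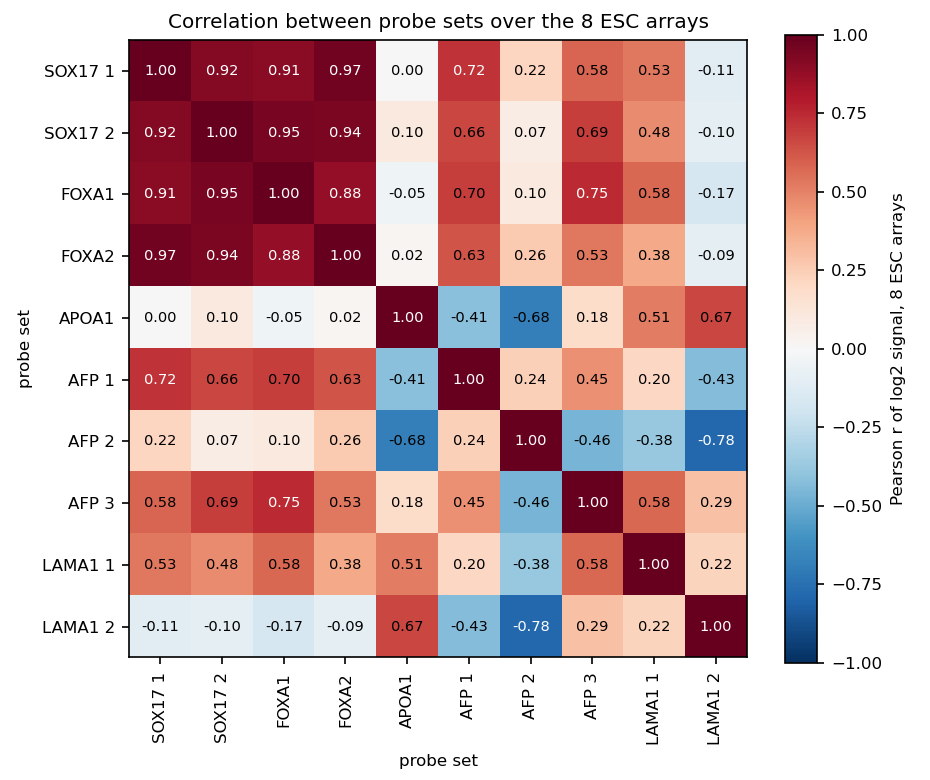
Pearson r of log2 signal between each pair of the 10 member probe sets over the 8 ESC arrays, with the value printed in each cell. The block of SOX17 1, SOX17 2, FOXA1 and FOXA2 holds values from 0.88 to 0.97, and the row of APOA1 runs from -0.68 with AFP 2 to 0.67 with LAMA1 2.

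The genes whose profile over the ESC arrays was most like that of each member were listed by Pearson r. For FOXA2 they were CER1, a secreted antagonist of NODAL and BMP (0.99), GSC, a homeobox factor of the anterior streak and organizer (0.99), and NODAL itself (0.98). CER1 read 268, 1573, 95.8 and 6310 for MPH1 at passages 7, 8, 9 and 11, 48.0 for MPH2, and 2129, 7475 and 1867 for MES1, MES2 and MES3. The order of the 8 arrays by CER1 was that by FOXA2 (rho 1.00), with MES2 and MPH1 at passage 11 highest and MPH2 lowest. The CER1 signal of MPH2 was under its array's median and can be background. For SOX17 the nearest genes were ADTRP (0.98), which was under the array median on most ESC arrays, LOC695935 (0.96) and GSC (0.96). For FOXA1 they were SHISA2, which retains WNT and FGF receptors in the endoplasmic reticulum (0.97), SNCAIP (0.94) and the forkhead factor FOXQ1 (0.93).

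The other members had other neighbours. For AFP 1 these were LOC717120 (0.94), the endoderm and heart factor GATA4 (0.89) and the WNT antagonist DKK4 (0.87). For LAMA1 1 they were CCKBR (0.91), AOAH (0.87) and ARHGAP42 (0.87), and for APOA1 they were HKDC1 (0.87), ZNF425 (0.86) and CNTNAP4 (0.84). The 3 neighbours of APOA1 were each under the array median on most ESC arrays, and GATA4 on 4 of the 8, so their r values rest in part on signals that can be background. To the mean score over the members the nearest genes were LOC695935 (0.97), COLEC12 (0.97), PDZRN3 (0.96), the WNT receptor FZD5 (0.96), RASGRP1 (0.95), LGR5 (0.95), SNCAIP (0.94) and ODAD1 (0.94). LGR5, a receptor for R-spondins, read 5646 in MES2 and 76.8 in MPH1 at passage 9, the ends of its ESC range. The lower of these was under its array's median and can be background. These genes were picked by rank among 2588 over the same 8 arrays, so their r values are a description.

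**Figure D4:**
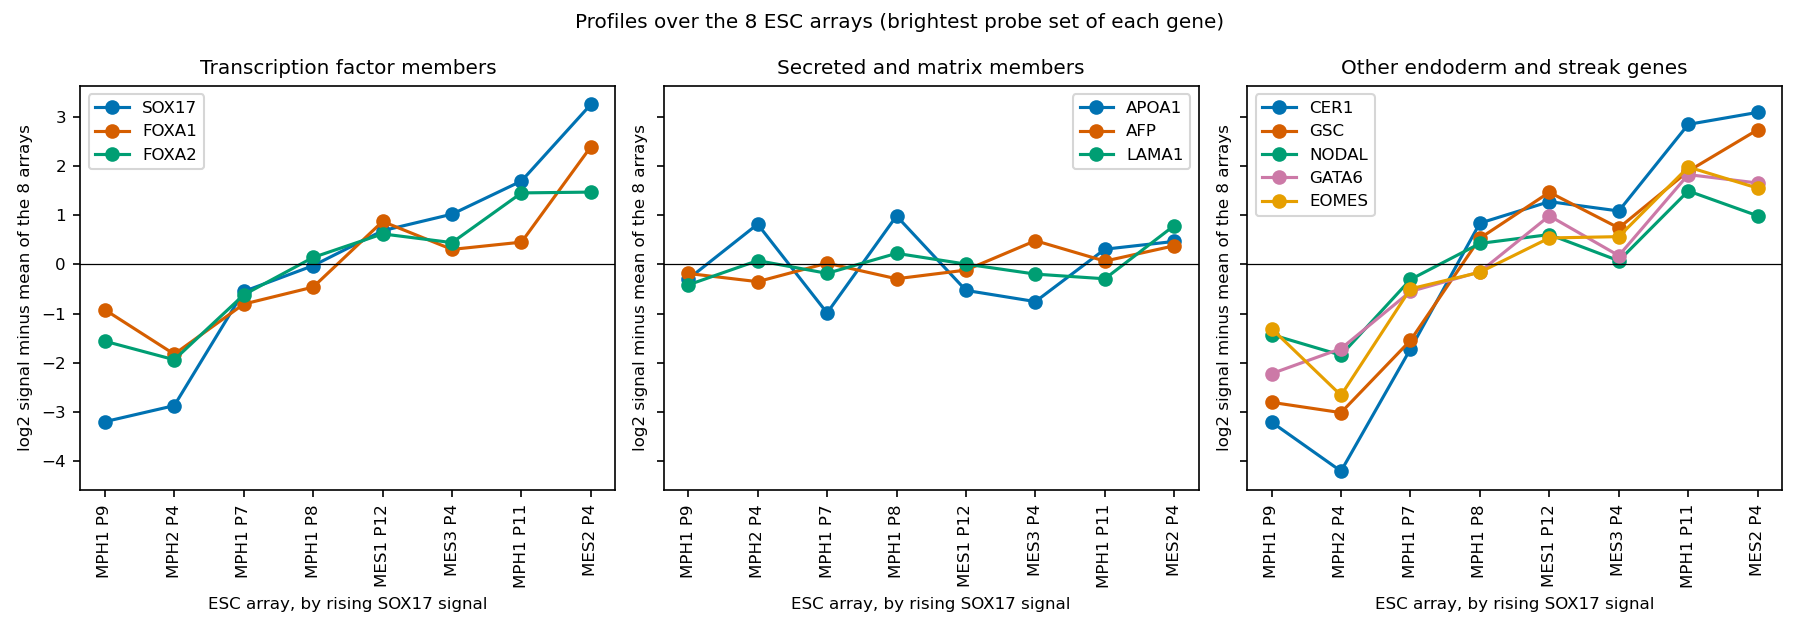
Log2 signal minus its mean over the 8 ESC arrays, for the brightest probe set of each member (left and middle panels) and for 5 other endoderm and streak genes (right panel), with arrays ordered by rising SOX17 signal. SOX17, FOXA1, FOXA2, CER1, GSC, NODAL, GATA6 and EOMES lie below their means on MPH1 passage 9 and MPH2 and above them on MPH1 passage 11 and MES2, while APOA1 is highest on MPH1 passage 8 and lowest on MPH1 passage 7, and AFP and LAMA1 stay near their means.

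Other endoderm transcription factors were taken from a list of 14, of which 9 could be tested. Between PG-haESC and ICSI ESC none was called and 7 of the 9 had a difference below 0. The median was -0.89 on the log2 scale, against -0.02 over all probe sets tested. The 4 with the smallest p were PRDM1 (-1.90 ± 0.70, SE), GSC (-2.93 ± 1.17), EOMES, a T-box factor of the streak and endoderm (-1.72 ± 0.87), and SOX7, a relative of SOX17 in extraembryonic endoderm and vessels, which was the other way (1.88 ± 0.84). Their adjusted p-values ran from 0.47 to 0.76 by limma. SOX7 was under the array median on all 8 ESC arrays, with signals of 3.44 to 72.6. GATA6, an early endoderm factor, had an r of 0.95 with SOX17 1 over the ESC arrays, GSC 0.96, EOMES 0.92, PRDM1 0.86, MIXL1 0.80, HHEX 0.57, GATA4 0.56, FOXA3 0.05 and SOX7 -0.37.

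Against the MF arrays, 3 of these 9 were called higher in PG-haESC (HHEX, FOXA3 and EOMES), where 17.0% of all probe sets were. The 2 called lower were SOX7 and PRDM1, where 16.0% of all probe sets were. In ICSI ESC 4 were called higher (the same 3 genes and GSC), where 16.5% of all probe sets were, and 1 lower (SOX7), where 16.2% were. EOMES, for example, had a fitted log2 difference of 3.76 ± 1.06 (SE) in PG-haESC and 5.48 ± 1.07 in ICSI ESC. Its MF signals of 40.8 and 60.1 were under the array median and can be background, so these differences are not read as folds. FOXA3 was under the median on both MF arrays too. As for the members, calls of such genes add little to the levels themselves.

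Of 11 endoderm signals and surface proteins, 8 could be tested. None was called between the ESC groups and 7 of the 8 had a difference below 0. The median was -0.98, against -0.02 over all probe sets tested. The 4 with the smallest p were CER1 (-3.36 ± 1.54, SE), the chemokine receptor CXCR4 (-1.65 ± 0.88), BMP2 (-1.13 ± 0.66) and NODAL (-1.11 ± 0.75), with adjusted p-values from 0.67 to 0.89 by limma. Over the ESC arrays CER1 had an r of 0.96 with SOX17 1, BMP2 0.93, NODAL 0.92, CXCR4 0.86, KIT 0.80, DKK1 0.68, FGF17 0.55 and EPCAM -0.33. Against the MF arrays NODAL and EPCAM were called higher in PG-haESC, where 17.0% of all probe sets were. CER1, NODAL, CXCR4 and EPCAM were called higher in ICSI ESC, where 16.5% of all probe sets were. None was called lower, where 16.0% (PG-haESC) and 16.2% (ICSI ESC) of all probe sets were. NODAL and CER1 were under the array median on both MF arrays, so their calls rest on MF levels that can be background.

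Of 18 yolk sac and liver secreted proteins, 9 could be tested, and ALB, TTR, TF, FGA and AHSG were among the 9 that could not. None was called between the ESC groups, 6 of 9 had a difference below 0 and the median was -0.02. SERPINA1, the alpha-1 antitrypsin gene (-0.48 ± 0.16, SE), RBP4, the retinol carrier (-1.95 ± 1.06), AMBP (0.49 ± 0.31) and APOB (-0.27 ± 0.43) had the smallest p, with adjusted p-values of at least 0.39 by limma. RBP4 was under the array median on all 8 ESC arrays, so its difference between the ESC groups can be one of background. Against the MF arrays AMBP was called higher and APOE, RBP4 and SERPINA1 lower in PG-haESC, and 0 were called higher and APOE and RBP4 lower in ICSI ESC. Of all probe sets, 17.0% were called higher and 16.0% lower in PG-haESC, and 16.5% and 16.2% in ICSI ESC.

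The remaining endodermal lists were short. Of 4 endocytic receptors and adaptors of visceral endoderm, LRP2 (0.31 ± 0.93, SE) and DAB2 (-0.25 ± 0.76) could be tested, and neither was called in any comparison. LRP2 was under the array median on 5 of the 8 ESC arrays. Of 10 basement membrane genes 5 could be tested and none was called between the ESC groups, where the median was -0.20. LAMB1 (-0.60 ± 0.34) and LAMC1 (-0.30 ± 0.22), which encode the beta-1 and gamma-1 chains that join LAMA1 in laminin-111, had the smallest p of that list, followed by LAMB2 (-0.20 ± 0.35) and NID1 (0.14 ± 0.41). Against the MF arrays LAMB1 was called higher in ICSI ESC (1.67 ± 0.42, adjusted p = 0.0086) and not in PG-haESC. LAMB2 and HSPG2 were called lower in both ESC groups, where 16.0% (PG-haESC) and 16.2% (ICSI ESC) of all probe sets were.

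Markers of other cell types were read beside the members, since cultures grew on feeder cells and ESCs can leave pluripotency by several routes. No list had a gene called between PG-haESC and ICSI ESC. Of the pluripotency list 9 of 10 could be tested, with a median difference of 0.20 and the smallest p for DNMT3B (0.51 ± 0.20, SE), SOX2 (0.43 ± 0.22), ZFP42 (0.77 ± 0.84) and LIN28B (0.20 ± 0.27). Of 10 primitive streak and mesoderm genes 6 could be tested, with a median of -0.20. TBXT, the brachyury gene, had a difference of -3.11 ± 1.16 (adjusted p = 0.48) and an r of 0.92 with SOX17 1, while HAND1 (1.25 ± 0.64), TBX3 (-0.58 ± 0.84) and KDR (-0.26 ± 0.70) were named by the same rule. The other 5 tested genes of that list had r values with SOX17 1 from -0.60 (HAND1) to 0.15 (MESP1), and the mean of the list one of 0.36. TBXT was under the array median on 2 of the 8 ESC arrays and KDR on 4.

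Several genes of neuroectoderm and trophoblast had a negative r with SOX17 1. Of 10 neuroectoderm genes 3 could be tested, with differences of 2.86 ± 0.73 (SE) for DCX, 0.84 ± 0.41 for SOX3 and 2.57 ± 1.71 for PAX6. DCX, a microtubule protein of young neurons, read 250, 298, 378 and 115 for MPH1 at passages 7, 8, 9 and 11, 1055 for MPH2, and 64.0, 30.7 and 74.4 for MES1, MES2 and MES3. MES2 was the lowest ESC array, and the adjusted p was 0.15 by limma. The 3 ICSI ESC signals of DCX and that of MPH1 at passage 11 were under their array's median, so they can be background. PAX6 was under the array median on 6 of the 8 ESC arrays. DCX had an r of -0.90 with SOX17 1, SOX3 one of -0.86 and PAX6 one of -0.30.

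Of 10 trophoblast genes 8 could be tested, with a median difference of 0.89 and the smallest p for HAND1, which is in both lists, GATA2 (0.98 ± 0.58, SE), TP63 (0.80 ± 0.47) and KRT7 (1.57 ± 0.94). TP63 and CDX2 were each under the array median on 4 of the 8 ESC arrays, KRT7 on 5 and ELF5 on all 8. The mean of the list thus rests in part on signals that can be background. Single genes had r values with SOX17 1 from -0.86 (GATA2) to 0.03 (TP63), and the mean log2 signal of the 8 had one of -0.86. Their summed signal was 1533 to 3773 in PG-haESC, 1142 to 2464 in ICSI ESC and 32299 to 32882 on the MF arrays. Whether these cell types took part in the differences of the endoderm genes was not tested.

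Of 12 fibroblast and feeder genes 11 could be tested, with a median difference of 0.05 and the smallest p for PRRX1 (1.68 ± 1.09, SE), FBN1 (-0.79 ± 0.71), TWIST1 (-0.48 ± 0.63) and THY1 (-0.27 ± 0.42). Their summed signal was 23589 to 61484 in PG-haESC, 25380 to 146268 in ICSI ESC and 194459 to 195815 on the MF arrays, and none was at 0. The mean log2 signal of that list was lowest in MES2, at 8.75, where SOX17, FOXA1 and FOXA2 were highest, and highest in MES1, at 12.5. Its r with SOX17 1 over the 8 ESC arrays was -0.28, with FOXA2 -0.10 and with APOA1 -0.04.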

How the data were processed

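RNA of 10 samples was hybridised to Affymetrix Rhesus Macaque arrays, 1 array per sample. The deposited values are signal intensity on a linear scale, computed by the authors with MAS5 (per the submitters' processing notes, which give no version). Without the outer 2% of probe sets at each end, every array had a mean of 500, so a common scaling had been applied. From 52865 probe sets 158 controls were dropped, and the filter kept 34139 for testing. Gene symbols are those of the supplied probe annotation.

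The labels set the groups. All 10 arrays entered 1 limma model (version 3.58.1, R 4.3.3) of log2 signal with group means, a random effect of line (correlation 0.29) and an intensity trend in the variance. Tests were two-sided, Benjamini-Hochberg adjustment covered every probe set tested, and calls were made at 0.05. Because the random effect weights the lines, a fitted difference is not that of the plain means. The code was tested on simulated data. The number of arrays limits the precision.

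The members, lists and tests were chosen with earlier results of these data known. Every member probe set was named, with up to 4 genes per list by smallest p between the ESC groups, each by its probe set of highest mean signal. The nearest genes were the 8 most like the mean z-score over the members' brightest probe sets, and the 3 most like each member. Alternatives covered the block, the filter, the variance trend, an offset of 32, a floor at the median, quantile normalization, median centring and each array left out. Plots were made in matplotlib 3.10.9 (Python 3.11.15).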

Additional observations from a re-analysis of the deposited data

How the results depend on the processing

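Between PG-haESC and ICSI ESC, no tested member probe set was called under any alternative run for it, 22 for most and 21 for AFP 2 and LAMA1 2, which the 75th percentile filter left out. Both SOX17 probe sets, FOXA1 and FOXA2 kept a difference below 0 in all 22, with smallest adjusted p-values of 0.12, 0.10, 0.088 and 0.20. Those smallest values came without MPH1 at passage 11 and MES1, an alternative chosen after the data were seen. Leaving out 1 array moved SOX17 1 between -3.54 (without MPH1 at passage 11) and -2.09 (without MES2), SOX17 2 between -3.02 and -1.77 (the same arrays), FOXA1 between -2.50 (without MES3) and -1.45 (without MES2) and FOXA2 between -2.01 (without MPH1 at passage 11) and -0.99 (without MPH2). Over all probe sets, the calls of that comparison were 154, and ran from 8 (without MES3) to 475 (arrays as independent samples). The number of members called against the MF arrays was less stable. For PG-haESC it was 4, and 2 when signals under the median were raised to it. For ICSI ESC it was 5, and 3 with arrays averaged per line, and leaving out 1 array gave 3 to 6 calls, with 3 without MES2 or either MF array. APOA1 and LAMA1 1 stayed called higher than on the MF arrays in both ESC groups, and FOXA2 in ICSI ESC, under every alternative that was run. AFP 1 in ICSI ESC lost its call under 7 of 21, among them median centring, no variance trend and arrays averaged per line. AFP 2 was called lower in PG-haESC than on the MF arrays under 2 (-1.27 with arrays as independent samples, -1.31 with no variance trend). The fit of the 2 groups compared alone could not be fitted for ICSI ESC against MF, since only the MF arrays share a line.

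Some differences turned sign. SOX17 1 in PG-haESC against MF, -0.061 as reported, was 0.21 with arrays as independent samples, 0.086 with the code as block, 0.46 after quantile normalization, 0.33 after median centring, 0.070 with an offset of 32, 0.076 with the median as floor, 0.017 with no filter and 0.12 with those 2 groups alone, and leaving out 1 array gave -0.68 to 0.68. SOX17 2 in that comparison was -0.12 without MPH1 at passage 11 and MES1, and leaving out 1 array gave -0.30 to 1.09. LAMA1 2, whose reported differences were 1.73, 4.16 and 2.43, with the median as floor was -0.064 between the ESC groups, -0.26 in PG-haESC against MF and -0.20 in ICSI ESC against MF. LAMA1 1 between the ESC groups ran from -0.49 to 0.0043 when 1 array was left out, the latter without MES2. The cause of these turns was not tested. Levels under the array median cannot be told from background here, which touches SOX17 2, AFP 2, AFP 3 and LAMA1 2 on at least 5 of the 10 arrays. No paired analysis was possible because the groups are of different cell lines and share no replicate numbers in the labels.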
